A study of Schmidtea mediterranea with 6 samples.

Results

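The 2 arrays of the X2 gate, labelled progenitor cells, were set against the 2 arrays of the X1 gate, labelled stem cells, out of 6 arrays in all. The cells came from the planarian flatworm Schmidtea mediterranea, sexual strain, were sorted by flow cytometry, and are given no treatment in the labels. The other 2 arrays hold Xins, labelled differentiated cells; they entered the fit for its estimate of the spread, and their levels are given beside the comparison. A custom 1-colour array measured mRNA at mapped poly(A) sites, described as distal ones. A site is a contig, strand, start and end, printed as the files give them; their genome build was not given in the sources used here. A site was tested where at least 1 of its probes stood well above background on both X2 arrays or on both X1 arrays. That left 1267 of 5054 sites, measured by 2726 of 10902 probes with 1459 distinct sequences. On all 4 arrays of X2 and X1, 1041 of the tested sites were well above background.

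Planarian stem cells, or neoblasts, keep dividing throughout adult life and give rise to every other cell type. In the usual gating by DNA content, X1 takes the cycling stem cells, while X2 takes post-mitotic progeny together with stem cells that have not yet copied their DNA. The 3′ end of an mRNA is made by cleavage a short way downstream of a signal hexamer, most often AATAAA or its variant ATTAAA, after which the poly(A) tail is added. Cleavage can fall on 1 base or spread over a stretch, which is the span of a site below.

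The probes are short stretches of the transcript that run towards the cleavage positions. The last 30 bases of the probe are shown for the 2 largest measured rises and the 2 largest measured falls in X2, 5′ to 3′ and in the sense of the transcript, with a signal hexamer in capitals where 1 started 10 to 35 nt from the 3′ end of the probe. At the sites with more than 1 probe sequence, that of the brighter sequence is given.
mk4.007045.04.01 (Contig7045, minus strand, 13923 to 14040, rise): tagaaatttggttatgagctactaataaaa
dd_smedV4_323_0_1 (Contig532, minus strand, 122619 to 122694, rise): tatgctttgtggtccatgtagctctacgaa
dd_smedV4_60100_0_1 (Contig6, plus strand, 49210 to 49219, fall): ctccataaattatattttgctatgacttta
mk4.000985.12.01 (Contig985, minus strand, 54479 to 54533, fall): cttcattgttgataaAATAAAtattttcat
Of these 4 windows, only that of mk4.000985.12.01 holds a hexamer at such a distance. It starts 15 nt from the 3′ end of the probe. The aataaa in the window of mk4.007045.04.01 starts nearer to the end than the range searched, which covered the sense strand of the probe alone. The files pair no transcript model with a gene name, so no model is given a function here, and the gates could not be checked against stem cell or progeny markers.

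Each signal is a log2 intensity minus its array's 75th percentile, taken over probes well above background throughout, so that 0 is that percentile. Per array, 1489 and 1304 of all sites were well above background in X2, against 1419 and 1254 in X1. On this scale the lowest signal counted as above background was -6.29 and -5.57 on X2 arrays 1 and 2, against -6.44 and -5.30 on X1 arrays 1 and 2. Over the tested sites, the arrays of a gate differed by a median of 0.61 in X2 and 0.49 in X1. Nothing in the labels says that the 2 arrays of a gate hold RNA of different animals or sorts. The p-values therefore measure only the spread between these samples, possibly a technical one. In sorted bulk RNA, more cells that carry a transcript and more of it per cell cannot be told apart.

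In X2, 80 sites (6.31% of those tested) were higher than in X1 and 29 sites (2.29%) were lower, by limma at an adjusted p under 0.05. Of the 109 called sites 73.4% were higher in X2. The called sites share the same arrays, and some are near-identical copies, so their number gives no interval for this share. The share of rises depends on the processing and on the model. It was 54.3% in the fit that blocked on replicate number (291 higher, 245 lower) and 52.7% after normexp background correction together with quantile normalization (39 and 35). Quantile normalization of the processed signal alone gave 67.8% (78 and 37). The share was 59.2% with the percentile over all probes (103 and 71), and 89.6% with scaling by spike-in controls (69 and 8). Spike-in scaling moved the fold change of all tested sites up by a median of 0.62 on the log2 scale, so it weighs on how many sites were called in each direction. Under spike-in scaling, 60 of the 80 risen sites and 6 of the 29 fallen ones were still called. Rises outnumbered falls under each setting tried.

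The median log2 fold change of X2 over X1 was -0.04 over all tested sites, and its median size was 0.65. Of the tested sites, 40.2% were within 0.5 of no change on the log2 scale, 17.0% were at least 1 higher in X2 and 13.1% at least 1 lower. The median 95% interval reached 1.05 to either side of the log2 fold change, and the smallest change that was called in this fit was 1.49. At an unadjusted p under 0.05 there were 353 sites (27.9%). Both X2 arrays lay above both X1 arrays at 390 sites (30.8%) and below both at 346 (27.3%); all 80 and 29 called sites were among these.

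**Figure D1:**
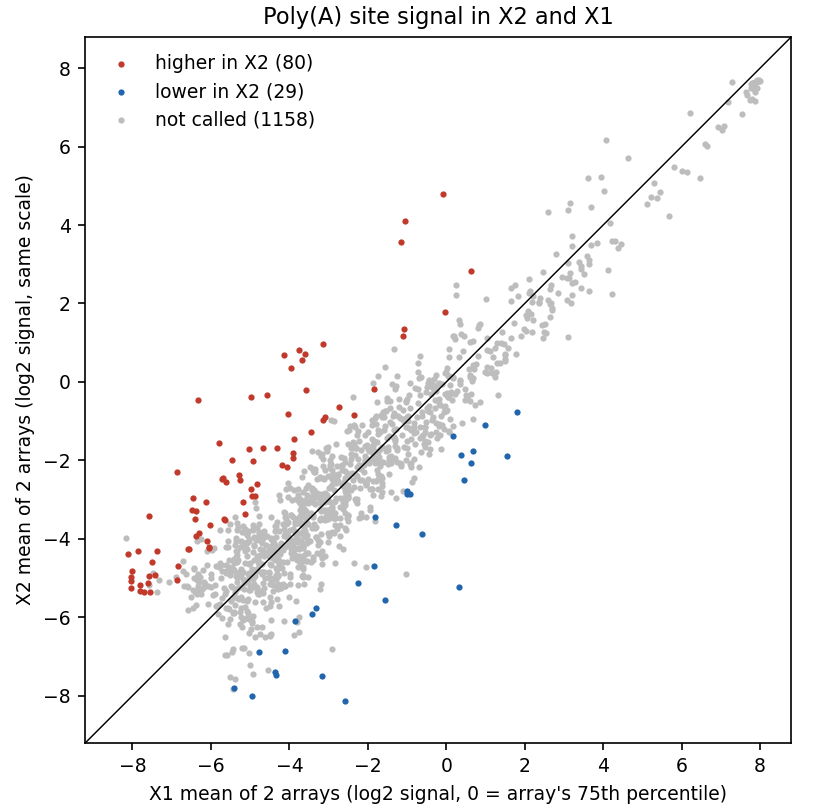
Each point is 1 of the 1267 tested sites, with the mean log2 signal of the 2 X1 arrays on the x axis and of the 2 X2 arrays on the y axis (0 is the 75th percentile of an array; the line marks equal signal). The 80 sites higher in X2 are red, the 29 lower ones blue and the 1158 that were not called grey. The red points have a median X1 signal of -5.38 and the blue points one of -1.57, partly set by the call. Of the red points, 21 were well above background on no X1 array.

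The largest measured rise was at the site of mk4.007045.04.01. Its signal was -0.73 and -0.21 on the X2 arrays, against -6.33 and -6.35 on the X1 arrays, and -3.06 and -1.29 on the Xins arrays. The gates X2 and X1 did not overlap, and Xins lay between them. The log2 fold change of X2 over X1 was 5.87 (SE 0.59, limma adjusted p = 0.00394). Only 1 of the X1 arrays was well above background, and with the dim array raised to its lowest signal above background the difference was 40.7-fold. The call ended under normexp with quantile normalization, where the value was 1.88 (adjusted p = 0.0508).

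The site of dd_smedV4_323_0_1 rose to 4.09 and 4.09 in X2, against -0.97 and -1.12 in X1, and was at 2.50 and 3.45 in Xins, between the other gates. It was well above background on all 6 arrays. The log2 fold change was 5.13 (SE 0.42, adjusted p = 0.0035), a 35.1-fold difference. The 2 probe sequences of this site gave 5.13 and 5.14. This call stood under every alternative setting, with values of 4.58 to 5.75.

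The largest measured fall was at the site of dd_smedV4_60100_0_1. Its signal was -4.86 and -5.57 in X2, against -0.15 and 0.82 in X1, and -3.47 and -1.55 in Xins. X2 was thus the dimmest of the 3 gates at this site on both arrays. The log2 fold change was -5.55 (SE 0.69, adjusted p = 0.0072), a 46.8-fold difference. The site was counted as well above background on all 6 arrays, but X2 array 2 lay at that array's lowest such signal, -5.57. The size of the fall thus rests on a signal near background. The call stood under every alternative setting, at -6.03 to -2.43. The smallest size was the value with normexp and quantile scaling.

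The site of mk4.000985.12.01 fell to -5.19 and -5.95 in X2, against -2.31 and -0.83 in X1, and was at -3.36 and -0.51 in Xins. X2 was again the dimmest gate on both arrays, and 1 of its 2 arrays was well above background. The log2 fold change was -4.00 (SE 0.94, adjusted p = 0.0448), near the threshold. With the dim array raised as above the difference was 14.1-fold. The call ended when any 1 of the 4 arrays of X2 and X1 was left out, with values of -4.74 to -3.27 and adjusted p of 0.054 to 0.159, and under normexp with quantile normalization, at -1.24 (adjusted p = 0.292).

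**Figure D2:**
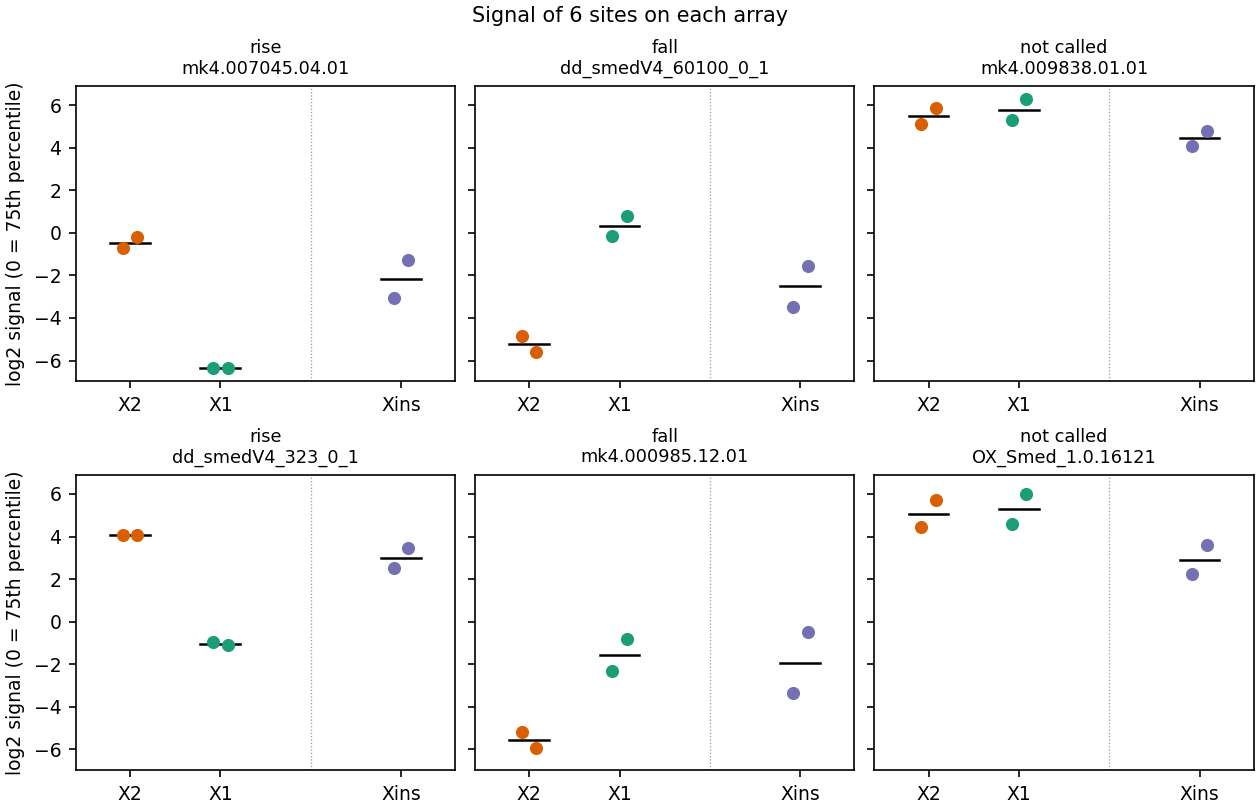
Each panel gives 1 site, with the log2 signal of every array as a point and the mean of the gate's 2 arrays as a bar, for X2, X1 and, set apart, Xins. The 2 rises (left) have X2 points above -1 with X1 points below them, the 2 falls (middle) have X2 points below -4, and at the 2 sites not called (right) X2 and X1 overlap.

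Further sites are given by position and were chosen after their values were seen. At Contig8247 (plus strand, 7074) the signal was 4.69 and 4.89 in X2, against 0.01 and -0.16 in X1, and 3.39 and 4.55 in Xins. At Contig3634 (plus strand, 37129 to 37220) it was 3.66 and 3.50 in X2, against -1.22 and -1.10 in X1, and 2.46 and 3.46 in Xins. These log2 fold changes were 4.87 (SE 0.46) and 4.74 (SE 0.43), and no array of X1 reached the level of X2. At Contig3939 (plus strand, 15269 to 15320) the signal was 0.10 and -0.87 in X2, against -4.90 and -5.08 in X1, with -1.43 and -1.04 in Xins. The log2 fold change there was 4.60 (SE 0.44). At all 3 sites Xins had a mean signal nearer to that of X2 than to that of X1.

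The measured rises are the 59 sites well above background on at least 1 X1 array, of which 43 were so on both and 16 on 1. Fitted folds had a median of 5.50-fold at these sites and 5.47-fold at the 21 measured falls, of which 17 were well above background on both X2 arrays and 4 on 1. Where a dim array lay under its lowest signal above background, it was raised to that signal to count sizes. By these bounds, 43 rises were at least 4-fold, 18 at least 8-fold and 12 at least 16-fold. Of the falls, 14, 4 and 1 passed these sizes. The bounds had a median of 5.32-fold and a highest value of 40.7-fold for rises, and of 5.12-fold and 46.8-fold for falls.

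The other measured falls were smaller. At Contig3562 (plus strand, 40966 to 40977) the signal was -1.49 and -2.29 in X2, against 1.75 and 1.35 in X1, and -3.58 and -3.99 in Xins. At Contig1255 (minus strand, 36645 to 36648) it was -3.89 and -3.84 in X2, against -0.70 and -0.55 in X1, while no Xins array was well above background. At Contig654 (plus strand, 97693) it was -1.76 and -2.39 in X2, against 0.59 and 0.66 in X1, and -3.99 and -3.84 in Xins. Their log2 fold changes were -3.44 (SE 0.42), -3.25 (SE 0.51) and -2.69 (SE 0.38). At these 3 sites the X2 arrays lay between those of X1 and Xins. At the 2 largest measured falls they lay below both.

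Some changes have only a bound, because no array of the dimmer gate was well above background. These bounds are nominal, since a site can lie above its array's lowest counted signal and still not be counted as above background. Only a bound was had for 21 of the rises, with a median of 1.94-fold and a range of 1.43-fold to 19.0-fold. The same held for 8 of the falls, whose bounds had a median of 2.98-fold and ran from 1.43-fold to 10.2-fold. At Contig2930 (minus strand, 21532 to 21597) the signal was -2.07 and -1.04 in X2, against -6.43 and -5.18 in X1, and -2.74 and -1.71 in Xins. Both X1 signals there lay above the lowest counted on their arrays, so its 19.0-fold is the fitted fold. At Contig242 (minus strand, 70382 to 70419) it was -8.46 and -7.81 in X2, against -3.04 and -2.12 in X1. At Contig242 Xins was at -6.59 and -4.13, with 1 of its arrays well above background.

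Read by detection alone, 42 of the 1267 tested sites were well above background on both X2 arrays and on no X1 array. On both X1 arrays and on no X2 array there were 29. Each X2 array also had more of all sites above background than the X1 array of its number, 1489 and 1304 against 1419 and 1254. In Xins, 27 of the 42 (64.3%) and 4 of the 29 (13.8%) were well above background on both arrays. On no Xins array were 8 of the 42 (19.0%) and 21 of the 29 (72.4%). Over all tested sites these shares were 80.0% on both Xins arrays and 7.97% on none. Most sites seen in X2 and not in X1 were seen on both Xins arrays, but at a smaller share than all tested sites. Most of those seen in X1 and not in X2 were seen on no Xins array, a larger share than over all tested sites. Both classes were dim, with a median of -5.05 in X2 for the 42 and of -4.99 in X1 for the 29. These classes rest on the background test of single arrays and are descriptions.

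The levels of the called sites in the 3 gates are given as medians. The 80 risen sites had a median of -2.53 in X2 and -5.38 in X1, with -1.89 in Xins. The 29 fallen sites had -4.68 in X2 and -1.57 in X1, with -5.08 in Xins. Over all tested sites the medians were -2.95, -3.14 and -2.96. In Xins, 75 of the risen sites (93.8%) were well above background on both arrays, against 16 of the fallen ones (55.2%). Over all tested sites this share was 80.0%. The X2 and X1 levels chose these sites, and any comparison of Xins with X1 uses the same X1 arrays. The median log2 fold changes are therefore only set side by side, over the sites measured in the dimmer gate of X2 and X1. They were 2.46 for X2 over X1 and 3.88 for Xins over X1 at the 59 risen sites. They were -2.45 and -4.33 at the 21 fallen ones, of which 4 were above background on no Xins array.

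**Figure D3:**
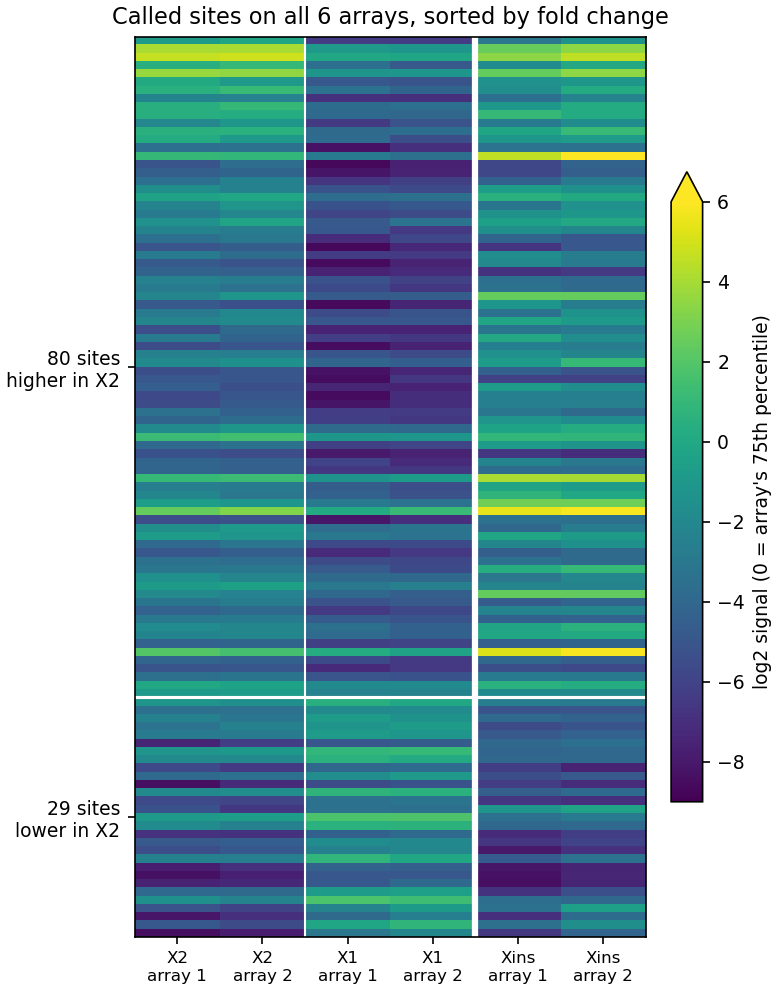
Each row is 1 of the 109 called sites, sorted by the log2 fold change of X2 over X1, and each column 1 array, with X2 and X1 left and Xins right of the thick line; the colour is the log2 signal. The 80 risen sites are brighter in X2 than in X1, and the 29 fallen ones are dimmer in X2 than in X1. Of the risen sites, 75 (93.8%) are well above background on both Xins arrays, against 80.0% of all tested sites.

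Among sites not called and with a log2 fold change within 0.5, the 2 with the highest mean signal were those of mk4.006836.02.01 and dd_smedV4_269_0_1. Their spots were saturated on 3 and 4 of the 4 arrays of X2 and X1, so no fold is given. The 2 brightest sites with no saturated spot and a log2 fold change within 0.5 were chosen after their values were seen. At Contig9838 (plus strand, 19985 to 20019) the signal was 5.12 and 5.85 in X2, against 5.32 and 6.27 in X1, with a log2 fold change of -0.31 (95% interval -1.49 to 0.87). At Contig4167 (minus strand, 20683 to 20687) it was 4.45 and 5.71 in X2, against 4.60 and 6.01 in X1, with -0.22 (-1.88 to 1.44). The arrays of X2 and X1 overlapped at both sites, and the intervals do not show that the gates were alike.

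Some called sites are near-identical copies, so that the array cannot tell their transcripts apart. When sites whose probes share a run of 20 identical bases were merged, the 80 risen sites made up 77 families and the 29 fallen ones 28, against 1193 families over all 1267 tested sites. The pair at Contig21132 (plus strand, 1622 to 1648) and Contig6075 (minus strand, 39550 to 39571) is shown because both were among the 8 largest measured rises. Their probes differed at 1 of 57 aligned bases, in capitals.
Contig21132: catttctatagttcccgtcttAttcatggt
Contig6075: catttctatagttcccgtcttTttcatggt
The signal was 0.43 and 0.97 in X2, against -3.51 and -4.78 in X1, at Contig21132. It was 0.52 and 1.13 in X2, against -3.34 and -4.17 in X1, at Contig6075. The log2 fold changes were 4.84 (SE 0.69) and 4.58 (SE 0.65), and these 2 sites are not independent measurements.

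Among the falls, the probes of Contig34612 (plus strand, 458 to 464) and Contig11981 (plus strand, 18488 to 18510) were identical over 44 aligned bases. They gave log2 fold changes of -2.56 (SE 0.38) and -2.44 (SE 0.39). A shared run did not always go with a shared call. The fallen site at Contig226 (minus strand, 72179 to 72221) was at -4.83 and -4.53 in X2, against -1.68 and -1.99 in X1. The site at Contig4497 (minus strand, 6068 to 6071) was at -1.13 and -0.90 in X2, against -1.49 and -1.40 in X1. It was put in the same family, although the probes matched at only 28 of 48 aligned bases. Its log2 fold change of 0.43 (SE 0.34, adjusted p = 0.448) was not called, and the difference between these 2 sites was not tested. This pair was chosen after its values were seen.

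At sites with 2 tested probe sequences, these mostly gave the same direction. This held at 16 of 16 risen sites, 3 of 3 fallen ones and 181 of 198 that were not called. The calls used the mean of a site's sequences, so a shared direction at called sites was partly set by the call. The sequences of a risen site differed by a median of 0.25 on the log2 scale and by at most 2.41, at Contig1159 (minus strand, 56297 to 56324), where they gave 5.78 and 3.37. Sequences of a site report the same transcript end and are not independent measurements.

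The span of a site was not used to choose it, and it is given for each list with no test. Risen sites had a median span of 27.5 nt, against 10 nt for fallen sites and 14 nt for all tested sites. Sites over 15 nt wide made up 65.0% of the risen, 37.9% of the fallen and 47.6% of all tested sites. Of 239 tested sites over 50 nt wide, 27 (11.3%) rose and 2 (0.837%) fell; of 191 with a span of 1 nt, 10 (5.24%) rose and 7 (3.66%) fell. The median signal over X2 and X1 moved with the span, at -1.73 for the widest sites and -4.32 for those of 1 nt. Its part in the shares was not tested.

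**Figure D4:**
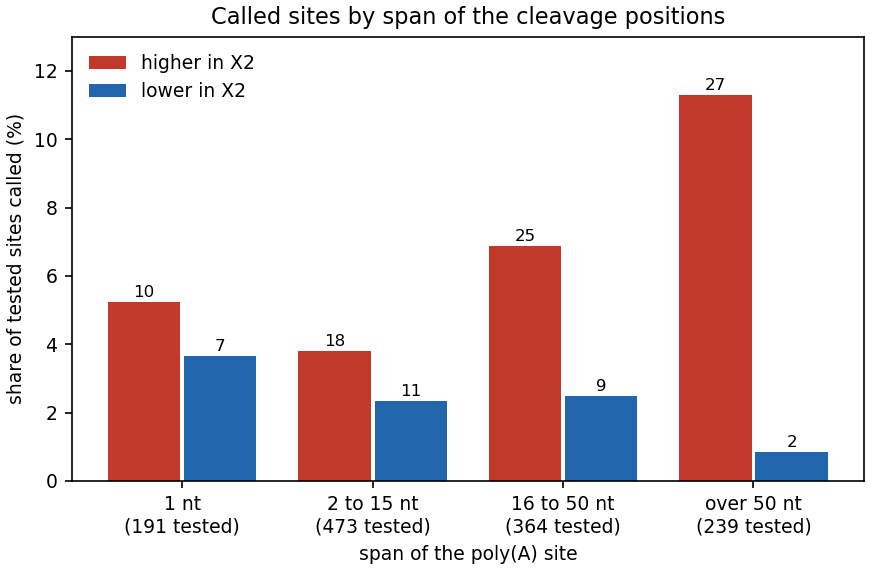
The bars give the percentage of tested sites called higher (red) or lower (blue) in X2 than in X1, for 4 ranges of span, with the number of called sites above each bar. The share that rose was 5.24% at 1 nt and 3.81% at 2 to 15 nt. It was 6.87% at 16 to 50 nt and 11.3% above 50 nt. The share that fell was largest at 1 nt.

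The signal hexamers were counted in the same 3 lists. AATAAA stood 10 to 35 nt from the 3′ end of a probe at 24 of the 80 risen sites, at 13 of the 29 fallen ones (44.8%) and at 452 of all tested sites (35.7%). ATTAAA without AATAAA was found at 3 risen, 0 fallen and 68 tested sites. Since a probe may end inside a wide site, the narrow sites of at most 15 nt were also counted alone. There AATAAA was found at 10 of 28 risen (35.7%), 7 of 18 fallen (38.9%) and 255 of 664 tested sites (38.4%). The median distance of AATAAA from the 3′ end of the probe was 24.5 nt at risen, 26 nt at fallen and 24 nt at all tested sites. The median GC content of the probes was 26.3% at risen, 26.7% at fallen and 25.8% at all tested sites.

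All arrays lay on 1 slide, where array 1 of X2 and of X1 sat in row 1, and array 2 of each and both Xins arrays in row 2, so row and replicate number cannot be told apart between these gates. Within row 1 the median difference between the X2 and the X1 array was 2.72 at the risen sites and -2.66 at the fallen ones, and within row 2 it was 2.61 and -2.61, with the sites that have only a bound included. Over all tested sites these medians were 0.02 and -0.03. The called sites were chosen on these same arrays, so the agreement of the rows at them is no separate support for the calls. With the row as a block, 126 sites were higher and 56 lower. With the replicate number as a block, which pairs the X2 and X1 arrays in the same way but splits the Xins arrays, 291 were higher and 245 lower, including all 80 and 29. Leaving out any 1 of the 4 arrays of X2 and X1 lowered both counts. There were 32 higher and 15 lower calls without X1 array 1, 46 and 11 without X1 array 2, 35 and 11 without X2 array 1, and 35 and 17 without X2 array 2. Of the 80 risen sites, 24 were called whichever of the 6 arrays was left out, and of the 29 fallen ones 7. Under all 18 alternative settings, 11 risen sites and 1 fallen site were called. Among them are the sites of dd_smedV4_323_0_1 and dd_smedV4_60100_0_1 and those at Contig8247, Contig3634, Contig3939, Contig21132 and Contig6075.

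**Figure D5:**
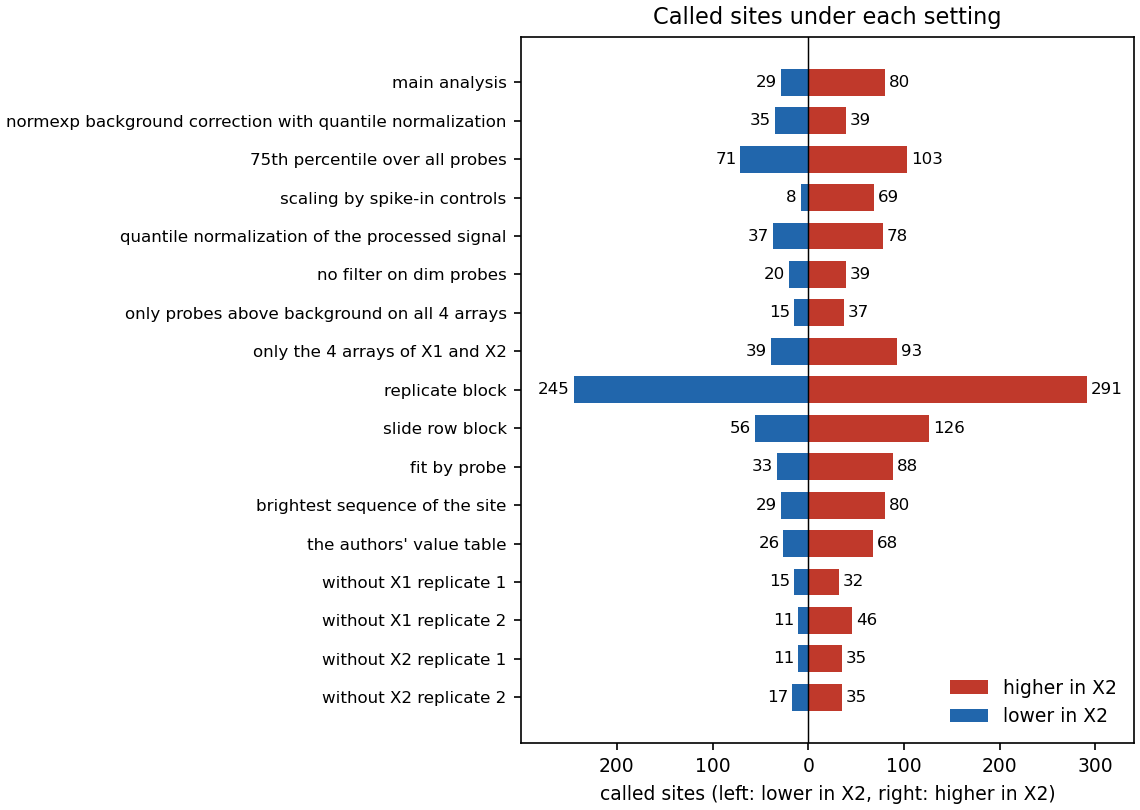
Bars to the right count the sites called higher in X2 than in X1 and bars to the left those called lower, for the main analysis (80 and 29) and each alternative; "without" settings leave out 1 array of X2 or X1. Rises outnumber falls in each setting shown, ranging by share from 39 against 35 with normexp to 69 against 8 with spike-in scaling, and the replicate block gives the most calls, 291 and 245.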

How the data were processed

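RNA of cells sorted by flow cytometry was hybridised to 1-colour Agilent arrays; per the labels' protocols, oligo-dT was used to take the mRNA, which was amplified linearly and labelled with Cy3. The scanner files deposited by the authors give linear intensity values, made with Feature Extraction 11.5.1.1 per the file headers: background-subtracted, detrended, and given a surrogate where too low (52.6% to 58.7% of spots per array). The authors also deposited a value table that was read as natural log, since its slopes against log2 of the scanner signal were 0.694 to 0.695, except 0.719 for X2 array 1; how it was normalized was not given in the sources used here. It served as an alternative. Per the submitters' processing notes, limma was used.

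Control spots and 11 outlier spots were left out. The log2 signal was scaled to each array's 75th percentile over 1914 probes that were well above background on each of the 6 arrays, since at most 28.5% of probes were so on any array. Probes were averaged by sequence, then by site. Sites were tested with limma 3.58.1 (lmFit and eBayes, R 4.3.3) over all 6 arrays, with Benjamini-Hochberg adjustment and a threshold of 0.05, after tests on simulated data. A bound sets the brighter gate against the higher of each array's lowest signal above background and the dim site's own. It is nominal, since that lowest signal is not a detection limit for each probe. The number of arrays limits the precision. Named sites were the 2 largest rises and falls that were called, with gates not overlapping, well above background on both arrays of the brighter gate and at least 1 of the dimmer, and with 1 direction at all sequences; the 2 brightest sites not called and within 0.5 (log2) were named too. Alternatives changed the background correction, scaling, filter, arrays in the fit, blocks, summary by site and source table, or left out 1 array. The members, lists and rules were chosen with earlier results of these data known. Marker lists could not be matched, since no model has a gene name.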

Additional observations from a re-analysis of the deposited data

How the results depend on the processing

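Main counts were 80 higher and 29 lower sites (73.4% higher). Normexp with quantile normalization gave 39 higher (52.7%), the percentile over all probes 71 lower (59.2%), and spike-in scaling 8 lower (89.6%). Without a filter 39 were higher. With probes above background on all 4 arrays, 37 and 15 were called of 1036 sites tested. Blocking on the slide row gave 126 and 56 calls, and the replicate block gave 291 and 245 (54.3%), including all 80 and 29. Same-numbered arrays deviated together (r = 0.618 between X2 and X1, 0.466 between X2 and Xins, 0.535 between X1 and Xins, across sites), but the labels do not say that a number marks a shared sort or day. Leaving out an array gave 32 to 93 higher and 11 to 39 lower, with 67.3% to 80.7% higher; the lone array of a gate was then assumed to vary like the others. Leaving out either Xins array gave the same counts as the 4 arrays of X2 and X1 alone, 93 and 39. The other settings kept both counts within 1.5 times. No named site changed direction. For the site of mk4.007045.04.01 16 of 17 values stayed past the threshold, and for mk4.000985.12.01 12 of 17 did, with the exceptions given above. The cause of these shifts was not tested. Signal near background limits the rest: 21 rises and 8 falls have only bounds.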
